A study of Mus musculus with 9 samples.

Results

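The 10 iron handling genes described here were chosen by name, as the genes of the liver's hepcidin hormone, iron export, iron uptake, iron sensing, iron carriage in plasma and iron storage. All 10 were found among the 55335 genes of the deposited table, and 9 of them had a mean of at least 1 FPKM (mapped fragments scaled by transcript length and by library size) over the mice and were among the 6755 genes tested. The values come from RNA-sequencing of whole liver from 9 male chow-fed mice, 3 in each of 3 groups, which was made to look for transcripts that differ with the mode of conception. NC-chow mice were conceived naturally, IVF-chow mice came from oocytes fertilized in a dish and transferred fresh at the 2-cell stage, and FET-chow mice came from embryos that were made the same way, slow-frozen and thawed before transfer. The IVF and FET embryos were carried by ICR foster mothers, which the NC mice did not have, so embryo culture, transfer and foster mother cannot be told apart. All 9 mice were B6D2F2, the second generation of a cross of C57BL/6J with DBA/2J, so mice of a group do not share 1 genotype. All were killed at 20 weeks of age after 4 h of fasting. The groups are named NC-chow, IVF-chow and FET-chow throughout, and mice carry the numbers of their labels (NC-chow 1, 5 and 6, IVF-chow 2, 3 and 4, FET-chow 2, 3 and 4).

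The liver sets the iron level of the body. Hepatocytes secrete hepcidin, a small peptide that binds the iron exporter ferroportin and has it degraded, so that more hepcidin means less iron leaving gut, macrophages and liver. Hepatocytes read iron through transferrin receptor 2 and Hfe at the cell surface and through BMP signalling to SMAD factors, they make the plasma iron carrier transferrin, and they store iron inside ferritin shells built of heavy and light chains. The mRNAs of ferritin, ferroportin and transferrin receptor 1 carry iron-responsive elements, short hairpins that the iron regulatory proteins bind when iron is low; binding before the coding region blocks translation, and binding after it protects the mRNA from decay.

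The mouse has 2 hepcidin genes side by side on chromosome 7 of GRCm38, both on the minus strand. Hamp spans chr7:30942368-30944032 and Hamp2 spans chr7:30922372-30924681, with 17686 bases between them. The 250 bases before the start of each are shown because their identity and differences are where transcription of the pair could be read differently. They are from RefSeq (GRCm38.p6), which held 8 of the 10 members, and capitals mark a match to the BMP response element GGCGCC, its counterpart in Hamp2, and a match to the STAT site TTCNNNGAA (N is any base). The RefSeq start of Hamp2 lies inside the gene span given above, which is GENCODE's. Hamp lies at chr7:30944030-30944279 and Hamp2 at chr7:30924182-30924431.
Hamp: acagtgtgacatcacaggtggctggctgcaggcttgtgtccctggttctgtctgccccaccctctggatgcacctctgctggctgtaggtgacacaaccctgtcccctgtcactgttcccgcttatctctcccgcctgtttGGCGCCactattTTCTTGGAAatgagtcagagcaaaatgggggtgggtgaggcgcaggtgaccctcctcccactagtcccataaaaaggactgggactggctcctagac
Hamp2: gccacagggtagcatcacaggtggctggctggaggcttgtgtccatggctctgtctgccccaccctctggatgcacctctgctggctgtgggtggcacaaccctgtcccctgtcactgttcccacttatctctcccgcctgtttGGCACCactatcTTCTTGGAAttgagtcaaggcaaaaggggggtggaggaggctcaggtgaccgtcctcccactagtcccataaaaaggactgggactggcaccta
Aligned, the upstream sequences were identical at 227 of 247 positions (91.9%), with 6 gap positions. The 6 letters GGCGCC stood at positions -109 to -104 of Hamp. In Hamp2 the aligned place, -106 to -101, held GGCACC, and GGCGCC did not occur in its window on either strand. The STAT site TTCTTGGAA was found in both, at -97 to -89 in Hamp and at -94 to -86 in Hamp2. Both motifs were searched on both strands and did not overlap each other. Of 32851 RefSeq promoter windows of this length, 9.59% held GGCGCC and 7.02% held TTCNNNGAA, and Tfrc was the only other member with either, a GGCGCC at -89 to -84.

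The genes of the pair are close copies. The sources used here do not give the read length or how fragments matching both genes were shared out, so the split between the pair is less certain than their sum.

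The hairpins of the iron-responsive element are shown because they mark the members that the iron regulatory proteins can act on, through translation for matches before the coding region and through the mRNA level for those after it. The pattern was a C, 5 bases, the loop CAGTGN, and 5 bases pairing with the first 5 (17 bases in all, G-T pairs allowed), searched in the untranslated regions of the coding strand; capitals mark the loop.
Fth1, chr19:9982738-9982754, plus strand: cttcaaCAGTGCttgaa
Ftl1, chr7:45459785-45459801, minus strand: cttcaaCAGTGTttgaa
Slc40a1, chr1:45925471-45925487, minus strand: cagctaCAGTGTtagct
Tfrc match 1, chr16:32631225-32631241, plus strand: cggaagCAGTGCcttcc
Tfrc match 2, chr16:32631604-32631620, plus strand: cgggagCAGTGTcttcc
Tfrc match 3, chr16:32631669-32631685, plus strand: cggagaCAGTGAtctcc
Tfrc match 4, chr16:32631716-32631732, plus strand: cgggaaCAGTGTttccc
Fth1, Ftl1 and Slc40a1 each had 1 match before the coding region, and Tfrc had 4 after it. Such a match was found before the coding region in 0.142% and after it in 0.59% of 21866 protein-coding genes. No other member had one.

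Judged by the spacing of low values, the libraries held about 6620000 to 13380000 fragments in NC-chow, 3890000 to 8410000 in IVF-chow and 2020000 to 2940000 in FET-chow. Nuclear protein-coding genes took only 4.4% to 29.3% of the summed FPKM of a library, and 3 noncoding features (AY036118, Gm23935 and CT010467.1) took from 3.5% in NC-chow 5 to 61.9% in IVF-chow 2. A gene's FPKM therefore moves with the makeup of its library, and each member is also given as parts per 1000000 (ppm) of the summed FPKM of nuclear protein-coding genes, called the coding scale below. IVF-chow 2 stands apart by this share and FET-chow 2 by its low depth. NC-chow 5 and 6 stand apart as well, with the greatest depth, with 3.5% and 5.0% in those features where the other livers had 18.1% to 61.9%, and with library numbers in the labels outside the run from 67 to 76 that holds the others. What that number marks is not stated, and fits with NC-chow 1 as the only NC-chow mouse are given in the closing section. For the other libraries that stand apart, the values without them are given where they matter. The 6 hepatocyte markers were present in all 9 livers, led by Alb at a mean of 7669 FPKM. On FPKM, 5 of the 6 had a negative and 1 a positive difference in FET-chow relative to NC-chow. Their median was -1.46 (all genes tested, -0.46). On the coding scale 4 were negative and 2 positive, with a median of -0.84 (all genes, -0.06). None passed in limma at an adjusted p under 0.05 on either scale. Tat, a hepatocyte aminotransferase, was at 97.0 to 243 FPKM in NC-chow, 14.6 to 89.7 FPKM in IVF-chow and 33.1 to 38.9 FPKM in FET-chow. Of all genes tested, 17.1% lay lower in every FET-chow liver, and 5.46% in every IVF-chow liver, than in every NC-chow liver. Apoa1 went the other way, with a mean of 3435 FPKM in NC-chow and 4107 FPKM in FET-chow. The summed markers overlapped on the coding scale, at 109209 to 138030 ppm in NC-chow and 99852 to 118573 ppm in FET-chow. The part of the hepatocyte markers' differences in those of the members was not tested. In bulk liver, fewer cells of a type and less RNA per cell cannot be told apart.

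No member passed the test in any comparison. With limma on log2(FPKM + 1) and Benjamini-Hochberg adjustment over the 6755 genes, 0 of 9 tested members had an adjusted p under 0.05 in FET-chow against NC-chow, where 0.237% of all genes did. IVF-chow against NC-chow also gave 0 of 9 (background 0.0592%), as did FET-chow against IVF-chow (background 0.0888%). At an unadjusted p under 0.05, 1 of 9 members passed in FET-chow against NC-chow, where 12.0% of all genes did, and 0 of 9 in the other comparisons, where 4.07% and 4.01% did. At the adjusted threshold these shares leave under 1 expected call for 9 genes, so a count of 0 is not a result about the members, and 1 of 9 at the unadjusted p lies near its background. Taking the comparisons in this order, the members' median log2 fold changes were -0.62, -0.30 and -0.30, beside -0.46, -0.25 and -0.20 over all genes tested. Rescaled to coding FPKM they were -0.02, -0.12 and -0.02, beside -0.06, -0.07 and 0.02. With NC-chow 1 as the only NC-chow mouse the members' medians relative to NC-chow turned to 0.19 and 0.36, beside -0.15 and 0.04 over all genes. Without NC-chow 1 they were -0.98 and -0.71, beside -0.62 and -0.41 over all genes. FET-chow and IVF-chow were compared with the same 3 NC-chow mice.

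On deposited FPKM no member had groups that failed to overlap. Of all genes tested, 17.1% had all FET-chow livers below all NC-chow livers and 1.98% had them all above. For IVF-chow beside NC-chow these shares were 5.46% and 0.770%, and for FET-chow beside IVF-chow they were 2.56% and 1.27%. On the coding scale 1 member, Hamp, stood above NC-chow in every IVF-chow mouse (4.87% of all genes did) and below IVF-chow in every FET-chow mouse (6.01% did), and 1 member, Tfrc, stood below NC-chow in every FET-chow mouse (11.5% did).

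**Figure D1:**
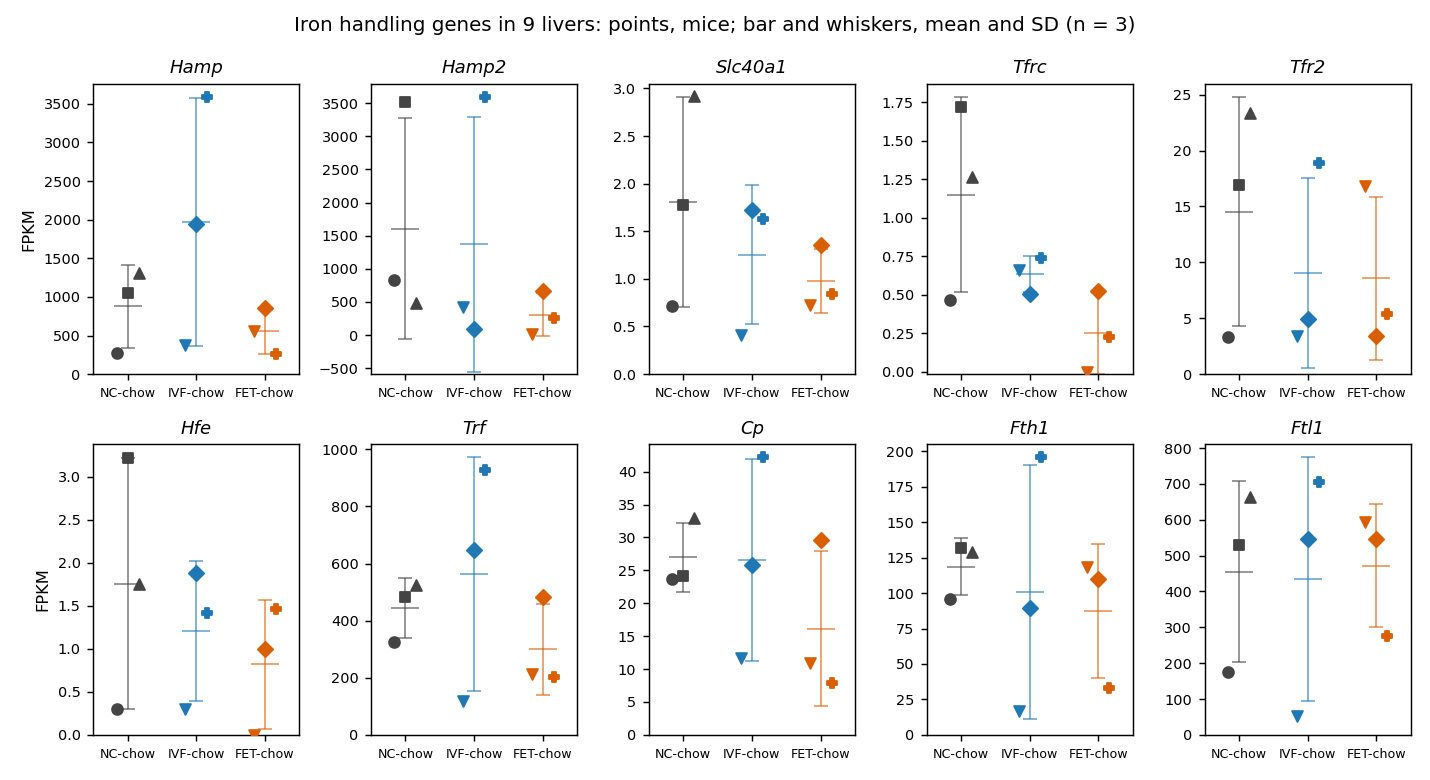
FPKM of the 10 iron handling genes (y axis, linear, each gene with its own range) in the livers of NC-chow, IVF-chow and FET-chow mice (x axis). Points are mice with 1 shape per mouse number, bars and whiskers are the mean and SD of 3 mice, and for every gene the points of the groups overlap.

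By mean FPKM over the 9 mice the members ran from Hamp at 1135, Hamp2 at 1095, Ftl1 at 454, Trf at 436, Fth1 at 102, Cp at 23.2 and Tfr2 at 10.7 down to Slc40a1 at 1.35, Hfe at 1.26 and Tfrc at 0.677. 3 steps of this order held in all 9 mice, Trf above Fth1, Fth1 above Cp, and Tfr2 above Slc40a1, and Cp was above Tfr2 in 8 of 9. The neighbours Hamp and Hamp2 (Hamp higher in 6 of 9 mice), Hamp2 and Ftl1 (5 of 9), Ftl1 and Trf (5 of 9), Slc40a1 and Hfe (6 of 9) and Hfe and Tfrc (6 of 9) changed places from mouse to mouse. The hormone, the storage protein and the plasma carrier were thus the abundant transcripts, while the exporter Slc40a1, the sensor Hfe and the receptor Tfrc were scarce and Tfr2 lay between.

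Hamp, which encodes hepcidin, was measured at 270, 1046 and 1311 FPKM in NC-chow mice 1, 5 and 6, at 383, 1943 and 3595 FPKM in IVF-chow mice 2, 3 and 4, and at 553, 858 and 257 FPKM in FET-chow mice 2, 3 and 4. The highest liver held 14 times the FPKM of the lowest, and the groups overlapped. The mean was 876 ± 541 in NC-chow, 1974 ± 1606 in IVF-chow and 556 ± 301 in FET-chow (SD, n = 3 each). On the log2 scale Hamp differed by 0.95 (SE 1.04) between IVF-chow and NC-chow, with an adjusted p of 1 in limma. FET-chow differed from IVF-chow by -1.48 (SE 1.04, limma adjusted p of 1) and from NC-chow by -0.54 (SE 1.04, limma adjusted p of 0.878). The difference of FET-chow from NC-chow was -1.24 without NC-chow 1 and 0.87 with NC-chow 1 as the only NC-chow mouse.

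On the coding scale the Hamp values drew together within groups. They were 2882, 7573 and 8369 ppm in NC-chow, 9765, 17780 and 15605 ppm in IVF-chow, and 6050, 6638 and 5658 ppm in FET-chow. Every IVF-chow liver was above every NC-chow and every FET-chow liver, and the FET-chow livers lay within the NC-chow range. The pooled within-group SD of log2 Hamp was 1.3 on FPKM and 0.56 on this scale. In the fit rescaled in this way the difference was 1.29 (SE 0.47) between IVF-chow and NC-chow, with a limma p of 0.0208 before adjustment and 0.835 after it. Between FET-chow and IVF-chow it was -1.19 (SE 0.47), with a limma p of 0.0304 before adjustment and 0.494 after it, so neither passed. With median-ratio scaling between libraries the differences were 1.39 (SE 0.48, limma adjusted p of 0.809) and -1.42 (SE 0.48, limma adjusted p of 0.4).

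Over the 15 fits of each comparison, scalings and left-out mice included, Hamp kept its sign in both. IVF-chow differed from NC-chow by 0.24 to 2.36, and FET-chow from IVF-chow by -2.41 to -0.80. On the coding scale without IVF-chow 2 the differences were 1.55 and -1.45 (limma adjusted p of 0.647 and 0.553), and without NC-chow 1, the lowest NC-chow liver, the difference from NC-chow was 0.81 (limma adjusted p of 0.655). Without FET-chow 2 the difference of FET-chow from IVF-chow was -1.18 (limma adjusted p of 0.5); these fits were added after the data were seen. The summed erythroid markers were lowest in IVF-chow on this scale, at 1689 to 2253 ppm, beside 2426 to 9060 in NC-chow and 3908 to 6292 in FET-chow. Hba-a1 was above 0 in all 9 livers. On FPKM the sums overlapped, at 78.0 to 389 in IVF-chow, 335 to 850 in NC-chow and 177 to 591 in FET-chow. Of these markers 5 were tested, and none passed after adjustment in limma in any comparison on either scale. Their part in the Hamp result was not tested.

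**Figure D2:**
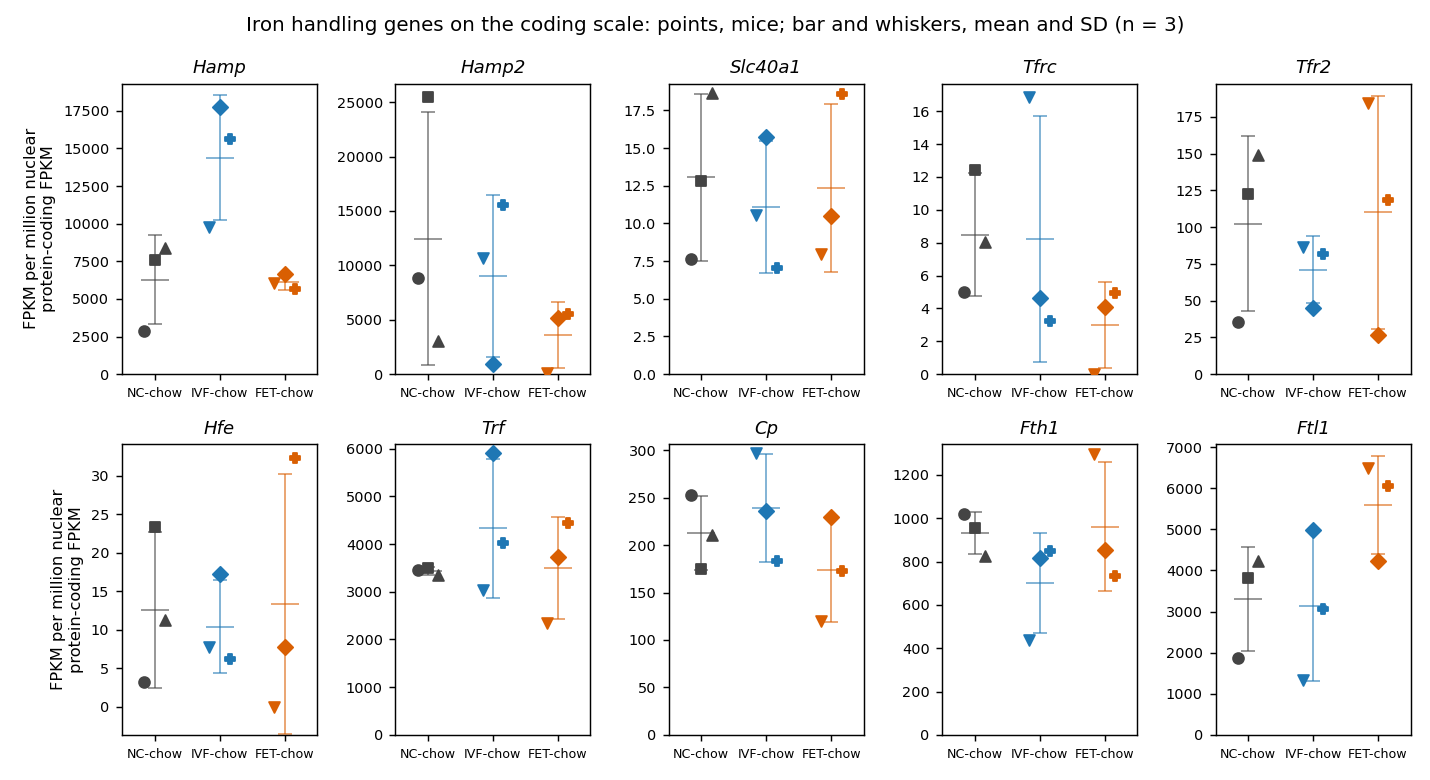
The same 10 genes in ppm of the summed FPKM of nuclear protein-coding genes (y axis, linear, own range per gene) by group (x axis), with points for mice, 1 shape per mouse number, and bars and whiskers for the mean and SD of 3 mice. Hamp in the 3 IVF-chow livers lies between 9765 and 17780, above all 6 other livers, and Tfrc in FET-chow lies below every NC-chow liver.

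Hamp2, the neighbouring hepcidin gene, was the most variable member. It was measured at 829, 3515 and 479 FPKM in NC-chow mice 1, 5 and 6, at 417, 98.7 and 3587 FPKM in IVF-chow mice 2, 3 and 4, and at 12.5, 664 and 251 FPKM in FET-chow mice 2, 3 and 4. The highest liver, IVF-chow 4, held 287 times the FPKM of the lowest, FET-chow 2, whose value rests on about 11 fragments, and the groups overlapped. Hamp2 was the member with an unadjusted p under 0.05, differing by -3.09 (SE 1.24) in FET-chow against NC-chow, with a limma p of 0.0166 before adjustment and 0.301 after it. Without FET-chow 2 that difference was -1.45 (SE 1.27, limma adjusted p of 0.795). Hamp2 still ranged over 186 times between livers on the coding scale, and the difference was -2.46 (SE 1.5, limma adjusted p of 0.436). Its pooled within-group SD on log2 was 2.42 on FPKM and 2.35 on the coding scale, so rescaling, which drew Hamp together, left Hamp2 as scattered as before. Mice of a group do not share 1 genotype, and the part of genotype in the Hamp2 values was not tested.

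Hamp2 did not follow Hamp from liver to liver. Hamp2 stood at 3.07, 3.36 and 0.366 times Hamp in NC-chow mice 1, 5 and 6, at 1.09, 0.0508 and 0.998 times in IVF-chow mice 2, 3 and 4, and at 0.0226, 0.774 and 0.978 times in FET-chow mice 2, 3 and 4. NC-chow and IVF-chow each held livers with Hamp2 above Hamp and livers with it below, and in FET-chow it was below Hamp in all 3. The largest imbalance was in IVF-chow 3 and FET-chow 2, where Hamp2 made up 4.84% and 2.21% of the sum of both genes. This ratio within a library does not depend on depth scaling, and in log2(FPKM + 1) it differed by -2.56 between FET-chow and NC-chow (two-sided exact permutation p = 0.3, adjusted p = 0.579 over 27 tests of ratios). Leaving out 1 mouse moved this difference to between -3.60 (without NC-chow 6) and -0.84 (without FET-chow 2). Across the 9 mice the log2 values of Hamp and Hamp2 had a Pearson r of 0.30 on FPKM and -0.03 on the coding scale, given as a description of points that share their libraries.

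Summed, Hamp and Hamp2 made up 1.17%, 3.30% and 1.14% of the nuclear protein-coding FPKM in NC-chow. In IVF-chow they made up 2.04%, 1.87% and 3.12%, and in FET-chow 0.619%, 1.18% and 1.12%. This is a sum of transcripts and does not measure hepcidin output. The sum overlapped between NC-chow and both other groups, and every FET-chow liver was below every IVF-chow liver. No test was run on the sum. Of single genes, 6.01% had all FET-chow livers below all IVF-chow livers on this scale.

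**Figure D3:**
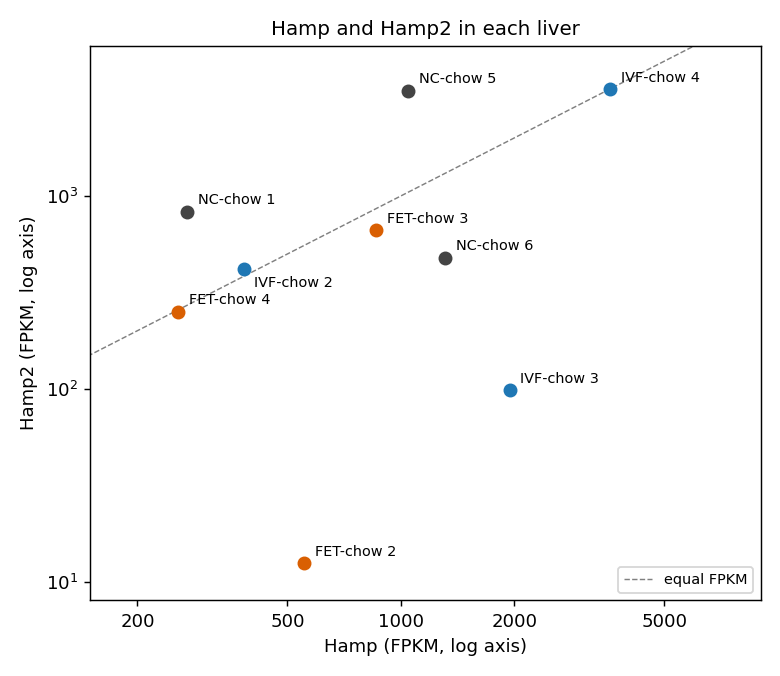
Hamp (x axis, FPKM, log scale) against Hamp2 (y axis, FPKM, log scale) in each of the 9 livers, labelled by group and mouse number; the dashed line marks equal FPKM. Every group has a point below the line, and IVF-chow 3 and FET-chow 2 lie farthest below it, at Hamp2 to Hamp ratios of 0.0508 and 0.0226.

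Slc40a1, which encodes ferroportin, the exporter that hepcidin acts on, was scarce in whole liver. It was measured at 0.717, 1.77 and 2.92 FPKM in NC-chow, 0.413, 1.72 and 1.63 FPKM in IVF-chow, and 0.728, 1.36 and 0.844 FPKM in FET-chow, with mice in the order of their numbers. The groups overlapped, and the values rest on roughly 5 to 132 fragments by the longest transcript. The differences from NC-chow were -0.44 in FET-chow and -0.30 in IVF-chow (SE 0.58 each, limma adjusted p of 0.81 and 1). All 9 livers lay between 7.06 and 18.7 ppm on the coding scale.

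Hamp exceeded Slc40a1 by 377, 590 and 448 times in NC-chow, by 927, 1128 and 2209 times in IVF-chow, and by 759, 632 and 304 times in FET-chow. As a linear ratio every IVF-chow liver was above every other liver, while NC-chow and FET-chow overlapped. Of all genes tested, 4.84% had ratios to Slc40a1 that were all higher in IVF-chow than in NC-chow, and for 5.76% every FET-chow ratio lay under every IVF-chow ratio. In log2(FPKM + 1), as tested, the pseudocount draws the low Slc40a1 values together and the groups overlapped. IVF-chow then differed from NC-chow by 1.25, and FET-chow from IVF-chow by -1.34 (two-sided exact permutation p = 0.3 and adjusted p = 0.579 for each). Leaving out 1 mouse moved the first to between 0.70 (without IVF-chow 4) and 1.87 (without IVF-chow 2), and the second to between -1.96 and -0.80 without the same mice. With 3 mice against 3 the smallest p this test can give is 0.1.

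Tfrc, which encodes transferrin receptor 1, the main route of iron uptake in dividing and erythroid cells, had a mean under 1 FPKM and was tested by permutation, entering limma only where no minimum was set. It was measured at 0.468, 1.71 and 1.26 FPKM in NC-chow and 0.659, 0.504 and 0.738 FPKM in IVF-chow. In FET-chow it was listed at 0 in mouse 2 and measured at 0.524 and 0.223 FPKM in mice 3 and 4. FET-chow overlapped NC-chow on FPKM, and no FET-chow value rests on more than about 7.2 fragments. In ppm of coding FPKM it was 0, 4.06 and 4.92 in FET-chow against 4.99, 12.4 and 8.07 in NC-chow, so that the groups parted by a margin far smaller than 1 fragment's worth of signal in FET-chow. In log2(FPKM + 1), FET-chow differed by -0.76 from NC-chow and by -0.41 from IVF-chow (two-sided exact permutation p = 0.2 for each, 3 mice a group). The limma fit with no minimum gave the same differences, with adjusted p of 0.522 and 0.791. On the coding scale the difference from NC-chow was -0.51, at the smallest p this test can give (two-sided exact permutation p = 0.1). The part of counting error in the low FET-chow values was not tested.

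Tfr2, the receptor by which hepatocytes read iron-loaded transferrin, was measured at 3.33, 17 and 23.4 FPKM in NC-chow, 3.38, 4.91 and 18.9 FPKM in IVF-chow, and 16.9, 3.43 and 5.39 FPKM in FET-chow. Each group held both low and high livers, so the groups overlapped. The differences from NC-chow were -0.63 in FET-chow and -0.63 in IVF-chow (SE 0.86 each, limma adjusted p of 0.815 and 1). Without NC-chow 1 they were -1.39 and -1.38, and with NC-chow 1 as the only NC-chow mouse 0.88 and 0.89. Hfe, the partner that joins Tfr2 in iron sensing and whose loss causes haemochromatosis, was measured at 0.300, 3.22 and 1.76 FPKM in NC-chow and 0.302, 1.89 and 1.42 FPKM in IVF-chow. It was listed at 0 in FET-chow 2 and measured at 1.0 and 1.46 FPKM in FET-chow 3 and 4, and the groups overlapped. Its differences from NC-chow were -0.54 and -0.24 in FET-chow and IVF-chow (SE 0.60 each, limma adjusted p of 0.766 and 1). Tfrc stood below Tfr2 in all 9 livers, and their difference in log2(FPKM + 1) did not pass in any comparison (two-sided exact permutation, adjusted p of 0.81 to 1).

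The plasma carriage genes were the steadiest members on the coding scale by a small margin. Slc40a1 and Fth1 came close, ranging over 2.645 and 2.966 times between livers. Trf, which encodes transferrin, was measured at 325, 484 and 523 FPKM in NC-chow, 119, 646 and 927 FPKM in IVF-chow, and 214, 482 and 202 FPKM in FET-chow. Rescaled, the NC-chow livers lay at 3460, 3505 and 3343 ppm, inside the range of both other groups, and all 9 livers lay within 2.53 times of each other. FET-chow differed from NC-chow by -0.66 (SE 1.07, limma adjusted p of 0.844) on FPKM and by -0.02 (SE 0.39, limma adjusted p of 0.984) once rescaled. Cp, which encodes ceruloplasmin, the copper ferroxidase that prepares iron for transferrin, was measured at 23.7, 24.2 and 33.0 FPKM in NC-chow, 11.6, 25.8 and 42.3 FPKM in IVF-chow, and 11, 29.7 and 7.83 FPKM in FET-chow. The groups overlapped, and FET-chow differed from NC-chow by -0.90 (SE 0.95, limma adjusted p of 0.753). All 9 livers lay within 2.47 times of each other on the coding scale, from 120 to 297 ppm.

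Fth1, the ferritin heavy chain that oxidizes iron on its way into the shell, was measured at 95.5, 132 and 129 FPKM in NC-chow, 17.1, 89.4 and 196 FPKM in IVF-chow, and 119, 110 and 33.4 FPKM in FET-chow. Ftl1, the light chain that helps the iron core form, was measured at 175, 528 and 663 FPKM in NC-chow, 52.5, 546 and 704 FPKM in IVF-chow, and 593, 546 and 275 FPKM in FET-chow. For both chains the lowest liver was IVF-chow 2 and the highest was IVF-chow 4, and the groups overlapped. Ftl1 was the member with a positive difference in FET-chow against NC-chow on FPKM, 0.18 (SE 1.10, limma adjusted p of 0.967), while Fth1 differed by -0.62 (SE 1.10, limma adjusted p of 0.862). The Ftl1 difference was -0.41 without NC-chow 1 and -0.026 without FET-chow 2, so its sign turned when either liver was left out.

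Light chain exceeded heavy chain in every liver. Ftl1 stood at 1.83, 4.01 and 5.14 times Fth1 in NC-chow, 3.06, 6.10 and 3.6 times in IVF-chow, and 5.0, 4.96 and 8.23 times in FET-chow. The lowest ratio was that of NC-chow 1 and the highest that of FET-chow 4, and the groups overlapped. As log2(FPKM + 1), the heavy to light ratio of FET-chow differed by -0.80 from that of NC-chow (two-sided exact permutation p = 0.3, adjusted p = 0.579), and without NC-chow 1 by -0.36. The annotated Fth1 copies added at most 0.43% to the Fth1 sum in any liver, and Ftl1-ps1, Ftl1-ps2 and Ftl2-ps made up 8.11% to 16.1% of the Ftl1 sum, as assigned by the authors' counting.

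Relative to albumin, both ferritin chains had their highest values in FET-chow. Fth1 stood at 0.0152, 0.0123 and 0.0130 times Alb in NC-chow, 0.0102, 0.0117 and 0.00951 times in IVF-chow, and 0.0203, 0.0219 and 0.0252 times in FET-chow. The groups did not overlap, with IVF-chow lowest and FET-chow highest. Ftl1 stood at 0.0279, 0.0495 and 0.0666 times Alb in NC-chow, 0.0311, 0.0712 and 0.0342 times in IVF-chow, and 0.102, 0.109 and 0.207 times in FET-chow. Every FET-chow liver was again above every other liver, while NC-chow and IVF-chow overlapped. Such a separation was common, since the log2(FPKM + 1) ratio to Alb was higher in all FET-chow livers than in all NC-chow livers for 34.2% of genes tested, and than in all IVF-chow livers for 10.5%. The IVF-chow ratios lay below all those of NC-chow for 1.20% of genes, as for Fth1.

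On log2(FPKM + 1), the FET-chow ratio of Fth1 to Alb differed by 0.74 from NC-chow and by 1.09 from IVF-chow, and the IVF-chow ratio by -0.35 from NC-chow. The FET-chow ratio of Ftl1 to Alb differed by 1.54 from NC-chow and by 1.63 from IVF-chow. Each of these 5 ratios reached the smallest p that 3 against 3 mice allow (two-sided exact permutation p = 0.1, adjusted p = 0.45 over 27 tests), so none passed. Leaving out any 1 mouse, the difference of FET-chow from NC-chow stayed between 0.65 and 0.84 for Fth1 and between 1.20 and 1.82 for Ftl1. Albumin itself was at 66813, 77237 and 63624 ppm on the coding scale in NC-chow, 43002, 70126 and 89363 in IVF-chow, and 63811, 38934 and 29180 in FET-chow. The ratio therefore holds both numerator and denominator, and without that denominator, on the coding scale, Fth1 differed between FET-chow and NC-chow by 0.01 (SE 0.38) and Ftl1 by 0.82 (SE 0.53), with limma adjusted p of 0.995 and 0.465. Hamp to Alb was higher in every IVF-chow liver than in every NC-chow liver (4.23% of genes were), by 1.39 (two-sided exact permutation p = 0.1, adjusted p = 0.45). Trf to Alb and Cp to Alb overlapped between groups in every comparison.

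Kupffer cells, the liver's macrophages, also hold much ferritin and ferroportin. The summed coding-scale level of their 10 markers, led by Clec4f, was 280 to 309 ppm in NC-chow, 206 to 426 in IVF-chow and 404 to 1118 in FET-chow, with FET-chow 2 highest. On FPKM the sums overlapped, at 26.2 to 45.7 in NC-chow and 18.3 to 102 in FET-chow. In FET-chow 2 most of the sum was Cd5l (36.8 FPKM) and Clec4f (33.8 FPKM), while Vsig4 and Csf1r, at 1.36 and 1.74 FPKM, were under their means over the 9 livers. Of 7 tested markers 4 had a negative and 3 a positive difference in FET-chow relative to NC-chow on FPKM, with a median of -0.14. Rescaled to coding FPKM, 2 were negative and 5 positive, with a median of 0.28, 2 were higher at an unadjusted p under 0.05 (7.19% of all genes were), and none passed after adjustment in limma. Of the 10, Clec4f, Cd5l, Vsig4, Csf1r, C1qa, C1qb and C1qc were above 0 in all 9 livers, while Adgre1 and Marco were listed at 0 in 4 each and Timd4 in 1. Their part in the ferritin values was not tested. The most abundant genes of the other marker lists were Hba-a1 (erythroid, mean 173 FPKM), Dcn (stellate, 6.16), Clec4g (endothelial, 3.91), S100a9 (neutrophil, 1.41, listed at 0 in 5 of 9 livers) and Krt19 (cholangiocyte, 1.20).

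**Figure D4:**
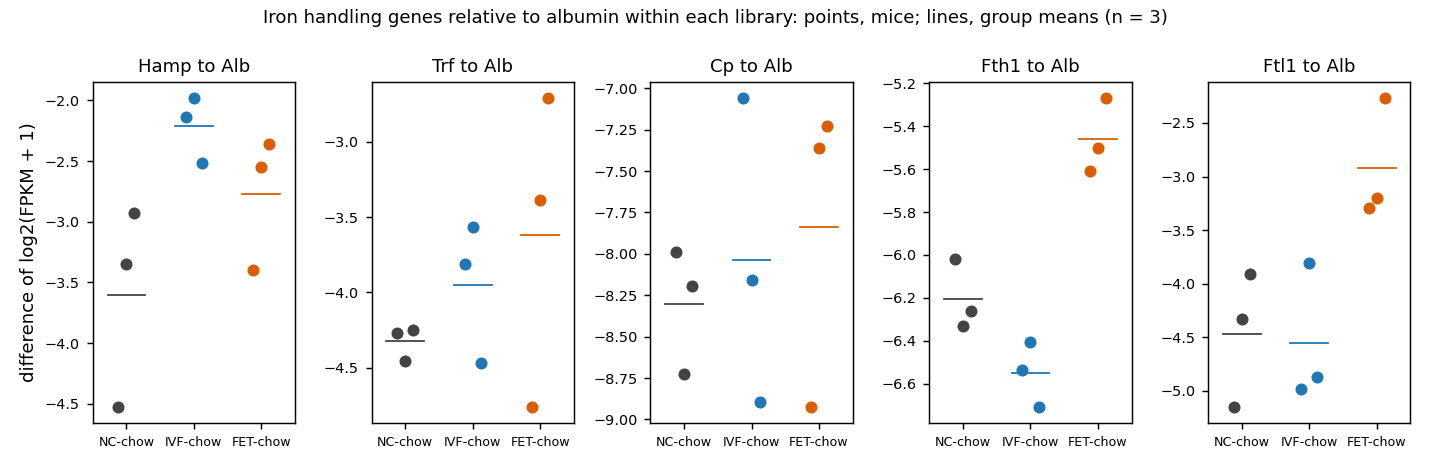
Difference of log2(FPKM + 1) between each of Hamp, Trf, Cp, Fth1 and Ftl1 and Alb (y axis, own range per panel) in each liver by group (x axis), with lines for the means of 3 mice. The FET-chow points of Fth1 and Ftl1 lie above all other livers, the IVF-chow points of Hamp lie above the NC-chow points, and Trf and Cp overlap in all groups.

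**Figure D5:**
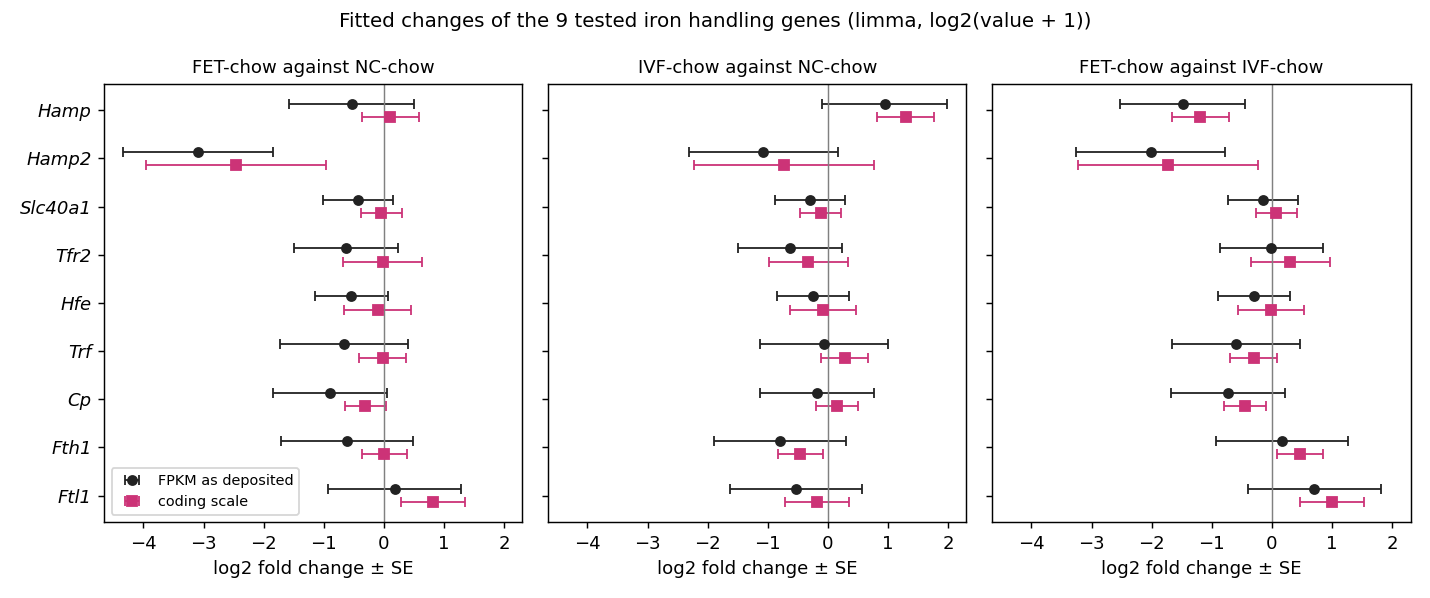
Fitted log2 fold change with its SE (x axis) of the 9 tested members (y axis) in 1 panel per comparison, from FPKM as deposited (circles) and on the coding scale (squares). The squares have shorter bars than the circles for most members, the bars of Hamp2 stay long on both scales, and the squares of Hamp sit at 1.29 and -1.19 in the comparisons with IVF-chow.

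The likeness of members differed between the scales. The closest pair on log2(FPKM + 1) over the 9 mice was Trf and Cp, with a Pearson r of 0.89, followed by Fth1 and Ftl1 at 0.86 and by Hamp and Trf at 0.85. On the coding scale the same pairs stood at 0.34, 0.57 and 0.46, and the closest pair was Slc40a1 and Hfe at 0.79, both measured from few fragments. On FPKM, Tfr2 was closest to Ftl1 (0.65), Slc40a1 to Trf (0.81), Hfe to Slc40a1 (0.76) and Hamp2 to Cp (0.58). Among all tested genes, the 5 whose FPKM was most like that of Hamp were Cebpz (r of 0.97), Eif4a-ps4 (0.97), Tdrd3 (0.97), Casp8 (0.96) and Fkbp4 (0.96); on the coding scale these stood at 0.82, 0.91, 0.71, 0.86 and 0.90. Each r is a description over 9 mice that differ in depth and library makeup.

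The genes that set hepcidin transcription were examined next, as a list of 25 that covers the BMP and SMAD pathway and inflammatory signals. Of 13 tested, 0 passed in any comparison, and their median log2 difference from NC-chow was -0.70 in FET-chow and -0.32 in IVF-chow, and FET-chow stood at -0.19 to IVF-chow. Rescaled to coding FPKM these were -0.44, -0.08 and 0.03. The FET-chow median relative to NC-chow was -0.11 after quantile normalization, and ran from -1.18 (without FET-chow 3) to -0.45 (without NC-chow 6) when 1 mouse was left out. The largest differences between FET-chow and NC-chow were those of Hjv, the BMP co-receptor hemojuvelin, at -1.5 (SE 0.92), of Cebpa, a liver transcription factor, at -1.28 (SE 0.89), and of Furin, a protease that cleaves prohepcidin and hemojuvelin, at -1.26 (SE 0.67), with limma adjusted p of 0.523, 0.593 and 0.453. With NC-chow 1 as the only NC-chow mouse these differences were -0.69, 0.009 and -0.61. Hjv was measured at 17.7, 40.2 and 44.8 FPKM in NC-chow, 3.58, 13.9 and 19.0 FPKM in IVF-chow and 17.8, 11 and 5.90 FPKM in FET-chow, so that only IVF-chow 3 and 2 and FET-chow 3 and 4 lay below every NC-chow liver. Id1, a direct BMP target, was measured at 2.13, 2.74 and 2.22 FPKM in NC-chow, 0.600, 2.73 and 8.55 in IVF-chow and 0, 6.15 and 1.18 in FET-chow, with overlapping groups. It was singled out after its values were seen, because it reads the same pathway as Hamp. In FET-chow Id1 differed by -0.424 from NC-chow and by -0.623 from IVF-chow (SE 0.68 each). Atoh8, of the same list, differed more, by -1.055 and -1.242 (SE 0.64 each), and did not pass either.

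Of 30 genes of iron and heme uptake, release and trafficking, 16 were tested and 0 passed, with a median difference from NC-chow of -0.41 in FET-chow and -0.30 in IVF-chow, and of -0.24 between FET-chow and IVF-chow. For FET-chow beside NC-chow the sign of this median turned with the scale, to 0.13 on coding FPKM (10 positive, 6 negative) and 0.01 with median-ratio scaling, and without FET-chow 4 it was -0.06. Slc39a14, which imports non-transferrin iron into hepatocytes, was measured at 3.87, 5.27 and 8.52 FPKM in NC-chow, 0.852, 2.60 and 4.31 FPKM in IVF-chow, and 0.499, 1.23 and 0.329 FPKM in FET-chow. Every FET-chow liver was below every NC-chow liver, as for 17.1% of all genes, and the difference was -2.01 (SE 0.62) with an adjusted p of 0.147 in limma. With median-ratio scaling it was -1.67 and passed, with an adjusted p of 0.0465 in limma. On the coding scale it was -1.65 and did not pass, with an adjusted p of 0.0537 in limma. The FET-chow values are low and come from the libraries of least depth, about 2020000 to 2940000 fragments. The part of counting error in them was not tested. Slc25a37, the mitochondrial importer mitoferrin 1, differed by -1.65 (SE 0.63, limma adjusted p of 0.279), and Lrp1, a receptor for heme bound to hemopexin, by -1.52 (SE 0.78, limma adjusted p of 0.43). Slc25a37 was at 1.94, 9.83 and 9.35 FPKM in NC-chow, and with NC-chow 1 as the only NC-chow mouse the differences of Slc25a37 and Lrp1 were -0.42 and -0.92.

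The remaining lists held no call either. Of 3 genes that act on iron-responsive RNA, 2 were tested, Aco1 (iron regulatory protein 1) and Ireb2 (iron regulatory protein 2), which differed between FET-chow and NC-chow by -1.12 (SE 0.76) and -0.49 (SE 0.64), with limma adjusted p of 0.58 and 0.808. Of 9 genes of heme synthesis, 8 were tested, and FET-chow differed from NC-chow by a median of -0.58, led by Tspo at -1.58, Uros at -0.90 and Alas1, the first enzyme of the pathway in liver, at -0.83 (limma adjusted p of 0.45, 0.63 and 0.733). Of 20 genes of iron-sulphur cluster assembly and use, 17 were tested with a median of -0.51, with Fdx1l at -1.90 and Iscu at -0.97 (limma adjusted p of 0.225 and 0.663). All 13 acute phase genes were tested with a median of -0.69, led by Apcs at -2.26, Saa2 at -2.09 and Saa1 at -1.81 (limma adjusted p of 0.358, 0.274 and 0.352). Saa1 and Saa2, the serum amyloid genes that inflammation induces together with hepcidin, were at 56.1 and 63.1 FPKM in NC-chow 1 and at most 7.68 and 2.38 FPKM in any other liver, and NC-chow 1 was the liver with the lowest Hamp on the coding scale. The part of inflammation in the Hamp values was not tested. Rescaled to coding FPKM, the medians of FET-chow relative to NC-chow were -0.18 for heme synthesis, 0.08 for iron-sulphur clusters and -0.07 for the acute phase list, so the sign of the iron-sulphur median turned. On FPKM the heme synthesis median was -1.04 without NC-chow 1 and -0.25 without NC-chow 6, that of iron-sulphur clusters was -0.14 without FET-chow 4, and that of the acute phase list ran from -1.18 (without FET-chow 3) to -0.43 (without NC-chow 1).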

How the data were processed

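Liver RNA of 9 mice, labelled as separate animals, was sequenced, and the authors deposited 1 table of FPKM per gene and mouse, which is not counts. The submitters' processing notes name FastQC 0.11.5, STAR 2.5.3a, StringTie 1.3.1c and DESeq2 1.16.1 without giving their roles. The genome build and annotation are not given in the sources used here, and Ensembl identifiers were named with GENCODE vM21 (GRCm38), which matched 55154 and left 181 unmatched. FPKM holds gene length and library makeup, so a very abundant feature can lower the values of the others. How far the abundant noncoding features did so was not tested, and their shares are of summed FPKM, not of fragments. Depth per mouse was judged by the spacing of low values (2020000 to 13380000 fragments), and fragments per gene from that and the longest transcript; both are rough.

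Values were tested on log2(FPKM + 1) with limma 3.58.1 (R 4.3.3), 1 model over the 3 groups with a trend in the prior variance, Benjamini-Hochberg over the 6755 genes with a mean of at least 1 FPKM, threshold 0.05, two-sided. Fold changes are on that scale and understate those of low genes. Tfrc and 9 ratios within a library were tested by exact permutation (scipy 1.17.1), 27 ratio tests as 1 family. The statistics were tested on simulated data. Alternatives were a pseudocount of 0.1, other filters (no minimum, or 10 FPKM), median-ratio, coding and quantile scaling, fits of only the groups compared, a replicate block, left-out mice, and ferritins summed with their pseudogenes.

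The members and lists were chosen with earlier results of these data known. Named genes are all members, the 3 tested genes of each other iron list that FET-chow moved most from NC-chow plus any that passed, the most abundant gene of each marker list, the 5 genes most like Hamp and each member's closest member. Some items that this rule names are not reported here.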

Additional observations from a re-analysis of the deposited data

How the results depend on the processing

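The count of members passing the threshold was 0 in the main fit and in all 42 alternative fits, and the lowest limma adjusted p of a member under any of them was 0.157. The direction of the members was less stable. Of 27 pairs of a tested member and a comparison, 8 kept their sign under every alternative fit, namely Hamp and Hamp2 in 2 comparisons each and Trf and Cp in FET-chow against NC-chow and FET-chow against IVF-chow, and 19 did not.

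In FET-chow against NC-chow the coding scale turned Hamp to 0.10 and Fth1 to 0.009, quantile normalization turned Slc40a1 to 0.10 and Hfe to 0.066, and NC-chow 1 taken as the only NC-chow mouse turned Hamp to 0.87, Slc40a1 to 0.19, Tfr2 to 0.88, Hfe to 0.39, Cebpa to 0.009 and Alas1 to 0.42. In IVF-chow against NC-chow, median-ratio scaling, the coding scale and quantile normalization turned Trf to 0.38, 0.28 and 0.10 and Cp to 0.24, 0.15 and 0.24, and NC-chow 1 alone turned Slc40a1 to 0.33, Trf to 0.36, Tfr2 to 0.89, Hfe to 0.68 and Ftl1 to 0.64. In FET-chow against IVF-chow the coding scale and quantile normalization turned Slc40a1 to 0.075 and 0.22, quantile normalization turned Hfe to 0.20, and median-ratio, coding and quantile scaling turned Tfr2 to 0.086, 0.30 and 0.065.

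Leaving out 1 mouse at a time, Ftl1 ranged from -0.41 to 0.55 and Alas1 from -1.46 to 0.035 in FET-chow against NC-chow. In IVF-chow against NC-chow the ranges were -2.46 to 0.13 for Hamp2, -0.61 to 0.011 for Slc40a1, -0.64 to 0.83 for Trf, -0.59 to 0.30 for Cp, -0.71 to 0.14 for Hfe, -1.55 to 0.17 for Fth1 and -1.21 to 0.65 for Ftl1. In FET-chow against IVF-chow they were -0.45 to 0.024 for Slc40a1, -0.59 to 0.65 for Tfr2, -0.64 to 0.089 for Hfe, -0.79 to 0.93 for Fth1 and -0.47 to 1.39 for Ftl1. The members' median turned to 0.17 in IVF-chow against NC-chow without IVF-chow 2 and to 0.065 in FET-chow against IVF-chow after quantile normalization; in the latter comparison it was -0.79 without IVF-chow 2 and -0.016 without IVF-chow 4. The causes were not tested.

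Saa2 passed in FET-chow against NC-chow without NC-chow 5 (-3.18). With NC-chow 1 alone Saa2 differed by -5.50 and Saa1 by -4.48, and without NC-chow 1 by -0.39 and -0.48. NC-chow 1 is the liver with high Saa2, and as a lone mouse it is assumed to vary like the other groups. Tfrc differed by -2.04 in FET-chow against NC-chow and by -1.42 in FET-chow against IVF-chow with a pseudocount of 0.1. Of the 27 ratio differences 10 changed sign when 1 mouse was left out. All 198 alternative values of the ratios moved by less than 1 SD between mice, which was wide. Leaving out 1 mouse of a group cannot move its mean that far, and the replicate block leaves the difference unchanged. Such values could not have failed this criterion. Hamp2 to Hamp ranged from -1.98 to 1.19 in FET-chow against IVF-chow, Hamp to Slc40a1 from -0.49 to 0.33 and Fth1 to Ftl1 from -1.11 to -0.36 in FET-chow against NC-chow. Ferritin sums with pseudogenes kept the sign of each difference.

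Over all genes, 16, 4 and 6 passed in the main fit in FET-chow against NC-chow, IVF-chow against NC-chow and FET-chow against IVF-chow. Without a filter, and in fits of only the groups compared, 0 passed in each. A pseudocount of 0.1, median-ratio scaling, the coding scale and quantile normalization each gave 0 in IVF-chow against NC-chow, and a minimum of 10 FPKM gave 5, 2 and 4. Median-ratio scaling gave 26 in FET-chow against NC-chow and took the lower genes among those at an unadjusted p under 0.05 from 685 of 812 to 764 of 1149, and the coding scale to 643 of 1129, and NC-chow 1 alone gave 6 and 2. Without 1 mouse the counts ranged from 1 (without FET-chow 3) to 83 (without NC-chow 1), from 0 to 24 and from 0 to 10. Median-ratio scaling moved the median of all genes from -0.46 to -0.14 in FET-chow against NC-chow.

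IVF-chow and FET-chow share the mouse numbers 2, 3 and 4. Same-numbered mice did not deviate together from their group means (r of -0.13, 0.02 and -0.26). With 3 mice a group and libraries of unlike makeup, these values cannot decide whether the numbers mark pairs. With the replicate block 2 genes passed in FET-chow against IVF-chow and no member did. Depth limits Slc40a1, Hfe and Tfrc, whose FET-chow values rest on 0 to 15.4 fragments, and Hamp2 in FET-chow 2.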
